A study of Gallus gallus with 53 samples.

Results

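The 194 probe sets described here are those whose signal in wild type DT40 cells was at least 2-fold lower 60 min after B cell receptor (BCR) stimulation with 10 μg/ml anti-IgM than before it. They were chosen by measured values. Of the 38361 probe sets in the table, 26866 had a geometric mean intensity over all 53 columns above 2.07. The members are those of the 26866 whose log2 intensity at 60 min was lower by 1 or more than in the unstimulated wild type column, and whose largest change in that course was downward. The second condition removed no probe set. The levels of the members in these columns are therefore given as a description, with no test, and every test below leaves out the unstimulated wild type column and the 10 μg/ml wild type course.

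DT40 is a chicken B cell line, and its RNA was measured on Affymetrix chicken arrays. Wild type (WT) cells received 0.1, 1 or 10 μg/ml of the anti-IgM antibody M4 or 1, 3 or 6 μg/ml CD40 ligand (CD40L), and cells pre-treated for 30 min with the MEK inhibitor U0126 (WT + Inh) and IKKβSA cells, which carry an S176/181A knock-in of IKKβ, were given anti-IgM at 10 μg/ml or CD40L at 6 μg/ml. The concentration of U0126 is 5 mM in the labels and 5 μM in the methods of the study. Each of these 10 courses has 1 column at 15, 30, 45, 60 and 90 min, and each of the 3 kinds of cells has 1 unstimulated column at 0 min. Per the labels, 2 biological replicates went into each column, so the table holds no spread between cultures, and the error used below is the deviation of the columns from their time trends. Unstimulated cells were not measured after 0 min, and a change with time in culture and a response to the stimulus cannot be told apart. These are bulk samples, in which fewer cells of a kind and less RNA per cell cannot be told apart either.

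Crosslinking of the BCR by anti-IgM activates tyrosine kinases at the membrane, and these feed the MEK-ERK kinase cascade and, through IKKβ, the NF-κB transcription factors. CD40, a receptor of the tumour necrosis factor receptor family, receives T cell help and also feeds NF-κB. In general the level of an mRNA falls when its loss outpaces its synthesis, so that even a complete stop of transcription lowers the level only as fast as the existing RNA decays.

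No member is named as a gene, since the pairing of probe set names with the values beside them could not be established. Among bright rows, the 2588 pairs that share a gene symbol correlated over the columns with a median of 0.28, against 0.09 for all pairs. The 2 rows under the symbol GAPDH, an enzyme of glycolysis used by most cells, had a median intensity of 2.43, below the 2.81 of all 38361 rows. The 154 rows with a ribosomal protein symbol had a median of 6.94, and 55 of them lay below the median row. For the same reason the cell line could not be checked against its markers. Members are numbered by their change at 60 min, member 1 having the largest. Column medians over all rows lay between 2.74 and 2.95, and the lowest belonged to WT at 0 min, the reference of the choice.

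Before stimulation the members were above the middle of the array. Their intensity in the unstimulated wild type column ranged from 3.87 to 892, with a median of 22.3 and quartiles of 14.0 and 38.1. All of them lay above that column's median. Part of this can follow from the choice, which favours a high value in this column, and this part was not tested. At 60 min of 10 μg/ml anti-IgM the median of the members was 9.84 and 13 of them had sunk below the column median, and at 90 min the median was 9.77. Many members stand close to the threshold of the choice, since 81 had a log2 change between -1.1 and -1 at 60 min. The 3 nearest inside it had changes of -1.0004, -1.0018 and -1.0034, with intensities of 3.87, 128.9 and 21.4 at 0 min and 1.94, 64.4 and 10.7 at 60 min. The 3 probe sets nearest outside it had changes of -0.9919, -0.9903 and -0.9899, with intensities of 6.42, 28.5 and 36.0 at 0 min and 3.23, 14.4 and 18.1 at 60 min. For the members, a log2 difference between 2 columns had a median standard error of 0.19, from the deviations around the trends. By this error, the members at the threshold and the probe sets just outside it cannot be told apart.

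In the course that chose the members most of the decline came between 30 and 60 min. The median log2 change from 0 min was -0.21 at 15 min, -0.36 at 30 min, -0.80 at 45 min, -1.12 at 60 min and -1.19 at 90 min. The median step was -0.43 between 30 and 45 min and -0.36 between 45 and 60 min, and only -0.04 over the last 30 min. Part of this shape can follow from the choice, which favours a low 60 min column, and this part was not tested. After anti-IgM in the other courses the median step between 45 and 60 min was -0.13 at 1 μg/ml and -0.30 at 0.1 μg/ml. It was -0.08 in WT + Inh and -0.05 in IKKβSA. By linear interpolation a member reached the midpoint of its 60 min decline at a median of 37.2 min, with quartiles of 32.5 and 41.6 min and a range from 10.4 to 52.6 min. The midpoint was reached by 15 min in 12 members, between 15 and 30 min in 25, between 30 and 45 min in 132 and later in 25. Only 1 member was already 2-fold lower at 15 min, 3 more at 30 min, 29 more at 45 min and the other 161 at 60 min. By the rule, every midpoint and every first 2-fold decline had to come by 60 min. At 15 min 24 members still stood above their 0 min level, and at 30 min 6 did. By the time of the lowest level in this course, 4 members were lowest by 45 min, 82 at 60 min and 108 at 90 min, and 148 were still 2-fold lower at 90 min.

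**Figure D1:**
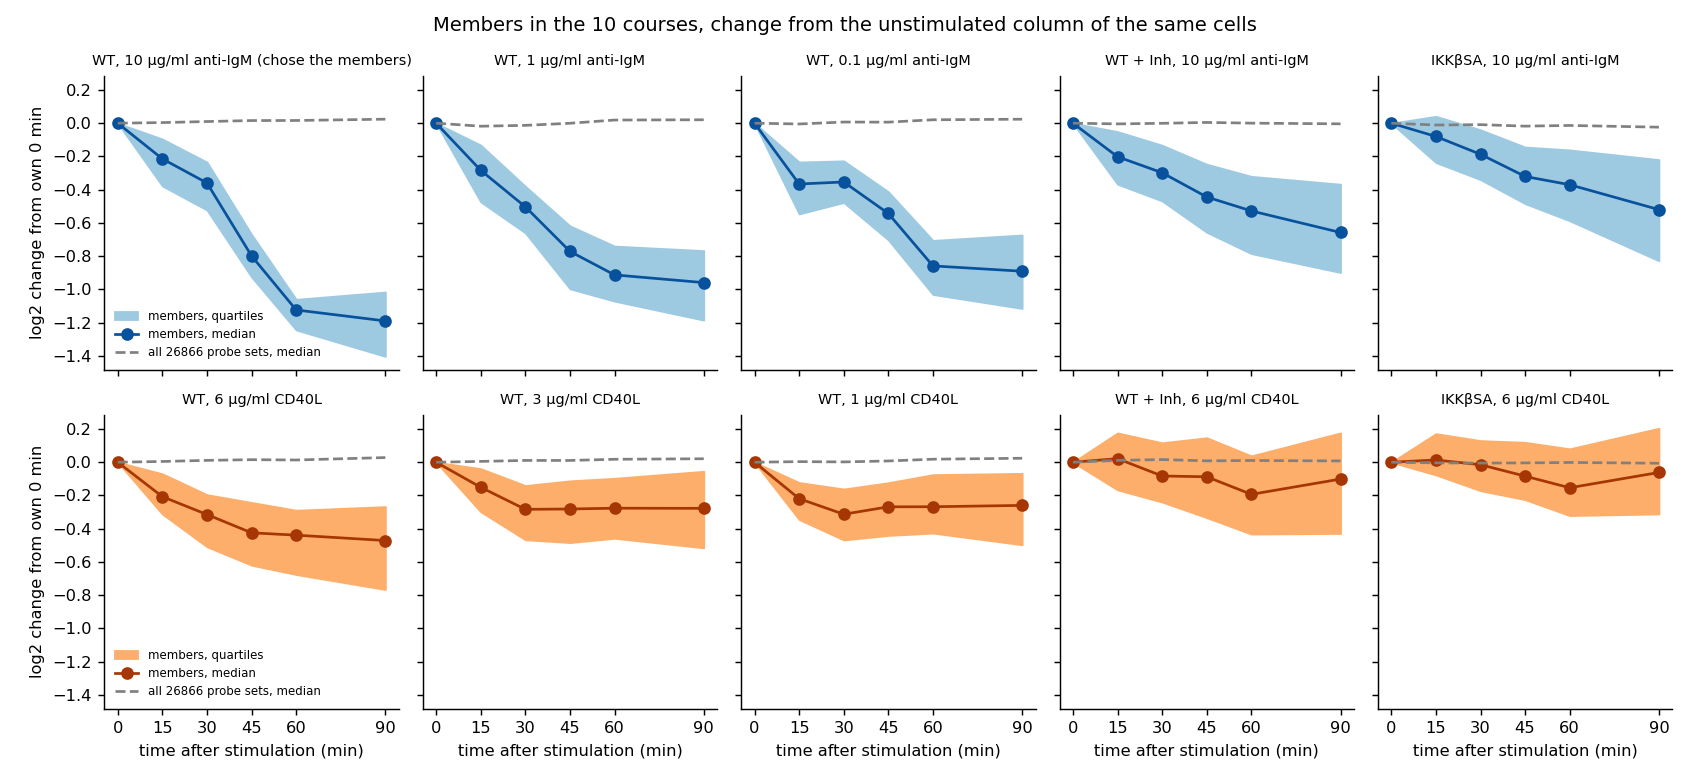
Median log2 change of the 194 members from the unstimulated column of the same cells (y axis) against time in min (x axis) in each of the 10 courses, with the band between the quartiles and, dashed, the median of all 26866 probe sets. The median is -1.12 at 60 min in the course that chose the members, -0.91 and -0.86 at the lower anti-IgM doses, -0.53 in WT + Inh and -0.37 in IKKβSA cells, and between -0.44 and -0.15 in the CD40L courses.

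Single members show how unlike these time courses were. Member 1, the brightest member and the one with the largest change, had an intensity of 892 at 0 min and of 1042, 558, 259, 200 and 141 at 15, 30, 45, 60 and 90 min of 10 μg/ml anti-IgM. It was thus not lower at 15 min, lost most of its signal between 15 and 45 min and was still sinking at 90 min. Member 2 went from 20.1 to 7.78 within 15 min and then to 6.65, 6.26, 5.39 and 6.23. This was the 1 member that was 2-fold lower at 15 min. Member 5 had 30.3 at 0 min and 26.0, 24.0, 15.3, 8.91 and 8.27 afterwards, so that most of its decline came between 30 and 60 min.

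The other members with large changes were dim. Member 3 had an intensity of 11.4 at 0 min and 7.22, 5.73, 4.18, 3.11 and 4.27 at the later times. Member 4 had 13.5 at 0 min and 11.8, 6.72, 4.53, 3.74 and 3.80 at the later times. Both ended below 5.77, the lower quartile of the members at 90 min. Among the brightest members of the group lowest at 60 min, member 107 had 182 at 0 min and 169, 125, 104, 84.6 and 88.5 afterwards, and member 80 had 76.6 and then 66.4, 61.1, 44.6, 34.1 and 38.4. Of the group lowest at 90 min the brightest after member 1 was member 172, with 130 at 0 min and 112, 94.2, 75.7, 63.7 and 57.0 afterwards. Members 107 and 80 were a little higher at 90 than at 60 min, while member 172 was lower at each later time. The direction from 60 to 90 min follows from their groups, which this course defined.

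The unstimulated wild type column was high for these members. The median difference of the other unstimulated columns from it was -0.21 (log2) for WT + Inh, where 160 of 194 members were lower, and -0.31 for IKKβSA, where 171 were lower, while the medians over all probe sets were 0.01 and 0.03. It was above both other unstimulated columns in 142 members, or 73.2%, against 29% of all probe sets, and it was the highest of all 53 columns in 51 members, or 26.3%, against 2.93%. Since the members were chosen for a high value in this column, part of this excess can follow from the choice, and how much was not tested. With the mean of the 3 unstimulated columns in its place, 94 probe sets met the rule, 87 of them among the 194. Member 1 was an extreme case, with unstimulated intensities of 892 for WT, 264 for WT + Inh and 749.5 for IKKβSA cells. At 15 min the members were lower than in this column in every wild type course, with median differences from -0.15 at 3 μg/ml CD40L to -0.37 at 0.1 μg/ml anti-IgM. All changes of wild type courses from 0 min below share this column, which the choice used, while changes from 15 min on do not.

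**Figure D2:**
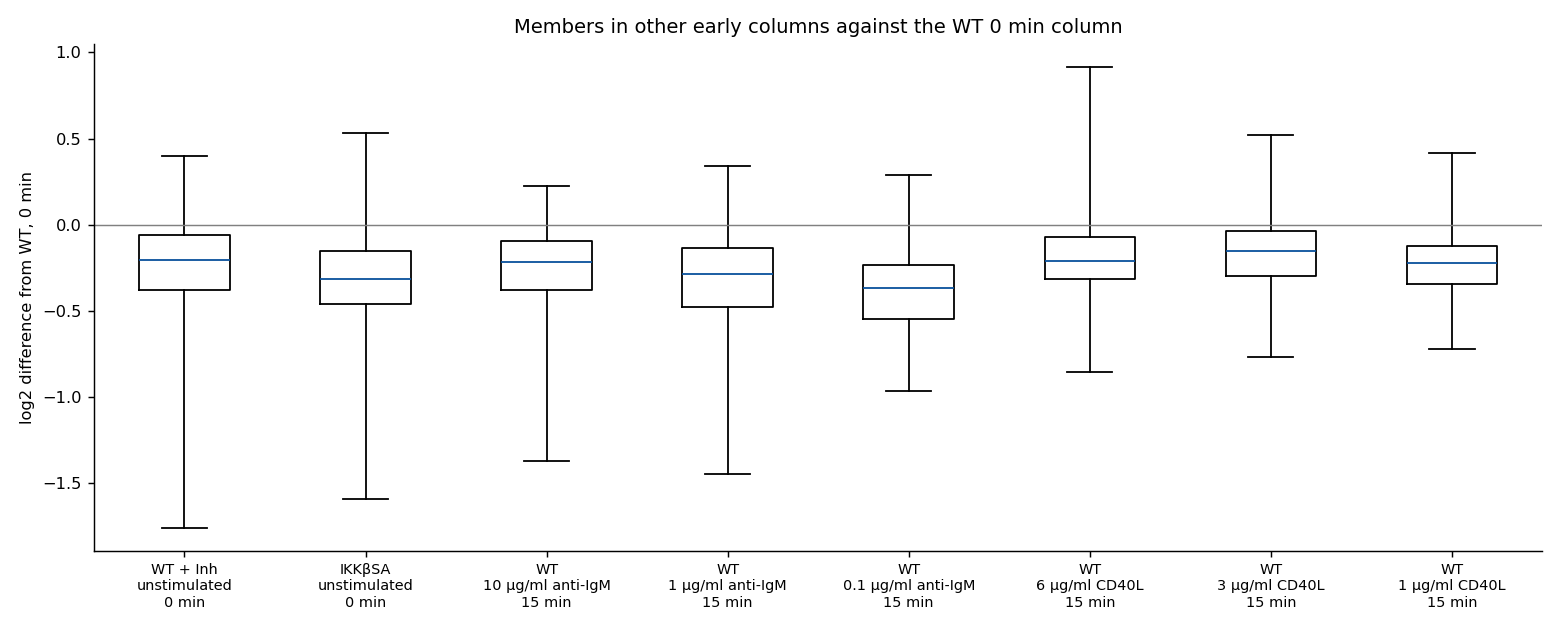
Log2 difference of the 194 members from the unstimulated wild type column (y axis) in the other unstimulated columns and the 15 min columns of the 6 wild type courses (x axis), with the box from lower to upper quartile, the median as a line and whiskers to the extremes. All 8 medians lie below 0, between -0.37 and -0.15, also in the unstimulated columns of WT + Inh and IKKβSA cells.

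At the lower doses of anti-IgM the members declined in wild type cells as well. Of the 26866 probe sets, 0.722% were at least 2-fold lower at 60 min than at 0 min at 10 μg/ml, which are the 194 members themselves. At 1 μg/ml 66 of the 194 members were 2-fold lower (0.287% of all probe sets), and at 0.1 μg/ml 58 were (0.346%). These counts share the 0 min column of the choice, so part of them can follow from it. Counted from 15 min instead, 32 members at 1 μg/ml and 8 at 0.1 μg/ml were 2-fold lower at 60 min. No share of all probe sets was counted from 15 min. The median log2 changes from 0 min were -0.91 at 60 min and -0.96 at 90 min for 1 μg/ml, and -0.86 and -0.89 for 0.1 μg/ml. Taken from 15 min, without the column of the choice, they were -0.60 and -0.63 at 1 μg/ml and -0.49 and -0.46 at 0.1 μg/ml. The time to the midpoint of the lowest median was 28.4 min at 1 μg/ml, 37.3 min at 0.1 μg/ml and 38.0 min at 10 μg/ml. These times all use the 0 min column of the choice, and the last also the course of the choice. At 0.1 μg/ml the median change from 0 min was already -0.37 at 15 min, measured against the column of the choice. It did not move between 15 and 30 min (step 0.02). Of the steps after 15 min the largest, -0.30, came between 45 and 60 min.

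These declines were tested as linear trends over 15 to 90 min in a fit of the 9 courses that did not choose the members (limma, 27 residual degrees of freedom, Benjamini-Hochberg adjustment over all 26866 probe sets). At 1 μg/ml 120 members fell and none rose, with a median fitted change of -0.64 over these 75 min. Of all 26866 probe sets 4.5% fell and 2086 rose. At 0.1 μg/ml 104 members fell and none rose, with a median of -0.57, while 5.26% of all probe sets fell and 543 rose. At an unadjusted p under 0.05, 1 member rose with the higher of these doses and 0 with the lower. The median standard error of a member's fitted change was 0.18. The count at 1 μg/ml was 66 without the 15 min columns. Over all times, 16 members were lower at 1 than at 0.1 μg/ml and none was higher (3 at an unadjusted p under 0.05). The median difference was -0.11, with a median standard error of 0.09. Of all probe sets 2.11% were lower and 341 higher. The count of 16 depended on single times, being 30 without 15 min, 7 without 30 min, 9 without 45 min and 8 without 90 min. It was 4 when only the 2 courses were fitted.

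Member 1 had 936, 414, 279, 268 and 222 over the 5 times at 1 μg/ml, and 904, 598, 546, 519 and 398 at 0.1 μg/ml. It fell by 1.86 ± 0.23 (SE) on the log2 scale at 1 μg/ml (adjusted p = 8.89e-08), at 0.1 μg/ml its fitted change was -1.05 ± 0.23 (adjusted p = 0.00164), and its mean level was lower at the higher of these doses by 0.65 ± 0.11 (adjusted p = 0.000452). Member 4 had 12.4, 7.94, 5.44, 4.34 and 3.52 at 1 μg/ml and 11.6, 9.68, 6.33, 5.98 and 4.37 at 0.1 μg/ml. It fell at both doses, with fitted changes of -1.79 ± 0.21 (adjusted p = 4.5e-08) and -1.43 ± 0.21 (adjusted p = 7.07e-06), and the difference of its mean level between them, -0.24 ± 0.10, did not pass the test (adjusted p = 0.237). Member 2, low from 15 min on, had 7.38, 6.33, 6.26, 6.98 and 8.42 at 1 μg/ml, and its trend of 0.26 did not pass the test (adjusted p = 0.635). A trend that starts at 15 min misses such an early decline.

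With the MEK inhibitor or in IKKβSA cells the decline after 10 μg/ml anti-IgM was present and smaller at the median than in the course that chose the members. Part of that gap can follow from the choice, since the wild type course had to reach the threshold, and this part was not tested. From their own unstimulated columns, the median log2 changes were -0.53 at 60 min and -0.66 at 90 min for WT + Inh, and -0.37 at 60 min and -0.52 at 90 min for IKKβSA. At 60 min 20 members were 2-fold lower in WT + Inh (0.112% of all probe sets) and 8 in IKKβSA (0.0484%). The median level at 60 min stood 0.47 above that of wild type cells in WT + Inh and 0.51 above in IKKβSA, whose unstimulated levels were lower. The time to the midpoint of the lowest median was 33.2 min in WT + Inh and 38.2 min in IKKβSA. It was 38.0 min in wild type cells at 10 μg/ml, where the choice can shape the timing. Whether the speeds were alike was therefore not tested. In WT + Inh and IKKβSA the median was lower at 90 than at 60 min.

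Over 15 to 90 min 74 members fell and 1 rose in WT + Inh, with a median fitted change of -0.40, and 76 fell and 2 rose in IKKβSA, with a median of -0.36 (limma, adjusted p under 0.05). Of all 26866 probe sets, 3.22% fell and 1975 rose in WT + Inh, and 3.03% fell and 1874 rose in IKKβSA. Without the 90 min columns the IKKβSA count was 45. Tested from their own 0 min column with a smooth curve over time, which takes in early declines, 124 members were lower and 1 higher in WT + Inh (5.25% of all probe sets lower), and 99 were lower and 5 higher in IKKβSA (3.1% lower). Here the direction is that of the 1 column with the largest change from 0 min, not of the curve. The 1 member higher in WT + Inh was so by its 15 min column, and its fitted change over 15 to 90 min there was -0.92. By the test with the smooth curve 1887 of all probe sets were higher in WT + Inh and 2074 in IKKβSA. Without the 90 min columns 61 members were lower in IKKβSA. No member differed in trend between WT + Inh and IKKβSA by limma's test. Of all probe sets 0.331% did, a share so small that the lack of called members does not set them apart. With a curve of another shape 4 members differed, and 1 did with each of a stricter filter, a pseudocount and a fit of these courses alone. At an unadjusted p under 0.05, 15 members had the lower trend in WT + Inh and 14 in IKKβSA. The median difference of the members was -0.01, with a median standard error of 0.25 for one member.

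**Figure D3:**
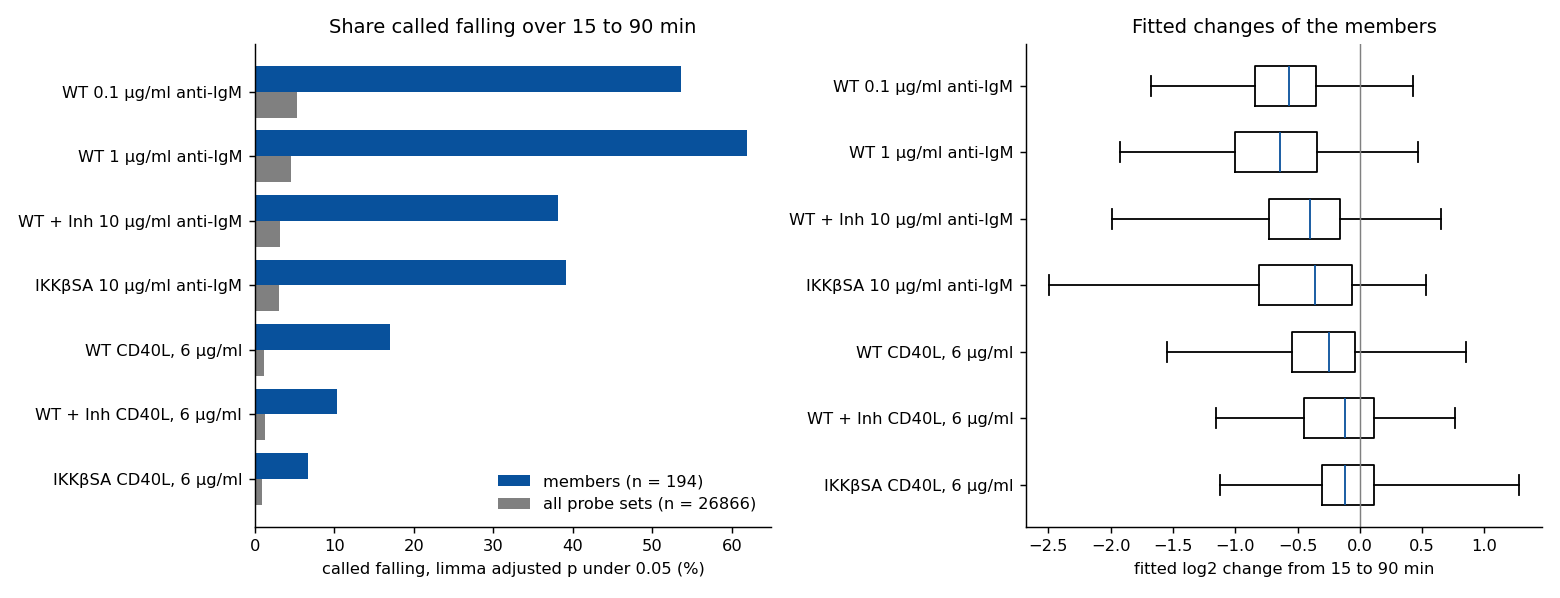
Left, the share of the 194 members and of all 26866 probe sets called falling over 15 to 90 min in each of 7 courses (x axis, %), and right, the fitted log2 change over that time of the members (x axis), with quartile boxes, medians and whiskers to the extremes. The shares of members are 61.9% and 53.6% at the lower anti-IgM doses, 38.1% and 39.2% in WT + Inh and IKKβSA cells, and 17.0%, 10.3% and 6.7% after CD40L.

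Calls in the 4 BCR courses overlapped in part. Of the 194, 41 fell in all 4, 36 in 3, 35 in 2, 32 in 1 and 50 in none. The overlaps were counted for the members only, so no share of all probe sets stands beside them. At both lower doses in wild type cells 86 members fell, and 24 of these fell in neither WT + Inh nor IKKβSA. Wild type trends were not tested against those of WT + Inh or IKKβSA. In both WT + Inh and IKKβSA 58 members fell, while 16 fell in WT + Inh only and 18 in IKKβSA only by these calls, which do not show a difference between the 2. Across the 194 members the fitted changes of WT + Inh and IKKβSA had a Pearson correlation of 0.75, and those of 1 μg/ml in wild type cells correlated at 0.72 with WT + Inh and at 0.70 with IKKβSA. These members share arrays within a course and were measured at 1 column a time, so the correlations are a description. Of the 97 with the higher mean level, 73 fell at 1 μg/ml, 61 at 0.1 μg/ml, 53 in WT + Inh and 47 in IKKβSA. Of the 97 dimmer ones 47, 43, 21 and 29 did. The median standard error was 0.16 for the brighter and 0.20 for the dimmer ones. Their median fitted changes differed as well, being -0.71, -0.58, -0.56 and -0.42 for the brighter and -0.56, -0.54, -0.30 and -0.25 for the dimmer ones. No share of all probe sets of like level was counted.

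Among the 87 members that the rule also keeps with the mean of the unstimulated columns as reference, a choice made after the data were seen, 60 fell at 1 μg/ml, 43 at 0.1 μg/ml, 38 in WT + Inh and 44 in IKKβSA. These are 69%, 49.4%, 43.7% and 50.6% of the 87, where the shares of the 194 were 61.9%, 53.6%, 38.1% and 39.2%. The shares of all 26866 probe sets were 4.5%, 5.26%, 3.22% and 3.03%.

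Member 13 had the largest change at 60 min in both WT + Inh and IKKβSA cells. It was picked for these columns, which its trends there also hold, so those trends partly follow from the pick. In wild type cells at 10 μg/ml its intensity was 96.1 at 0 min and then 85.8, 52.8, 35.2, 30.6 and 24.8. In WT + Inh it had 84.0 at 0 min and then 70.0, 52.8, 36.5, 28.0 and 23.7, and in IKKβSA 90.6 and then 79.8, 44.2, 36.1, 28.9 and 25.1. The 3 courses nearly coincided, and it fell by 1.61 ± 0.25 in WT + Inh (adjusted p = 1.57e-05) and fell by 1.55 ± 0.25 in IKKβSA (adjusted p = 2.24e-05).

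Member 1 also fell in both. It went from 264 at 0 min through 384, 225, 152 and 131 to 90.4 in WT + Inh and from 749.5 through 876, 534, 311 and 256 to 150 in IKKβSA. Its fitted changes were -1.99 ± 0.23 (adjusted p = 3.79e-08) and -2.49 ± 0.23 (adjusted p = 1.02e-10). The -1.86 in wild type cells belongs to a lower dose, 1 μg/ml. WT + Inh cells began much lower, and the member was higher there at 15 than at 0 min. From 0 min to 90 min its log2 change was -1.55 in WT + Inh and -2.32 in IKKβSA. In wild type cells it was -2.01 at 1 μg/ml and -2.66 at 10 μg/ml, both against the column of the choice. Members 107 and 80 fell in both as well, member 107 with fitted changes of -0.94 ± 0.12 and -0.70 ± 0.12 (adjusted p = 1.83e-07 and 2.86e-05) and member 80 with -0.62 ± 0.15 and -0.61 ± 0.15 (adjusted p = 0.00328 and 0.00359).

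Other members fell in wild type cells and had no called trend in WT + Inh or IKKβSA. Member 170, with the smallest change at 60 min in IKKβSA, had 13.9 at 0 min and then 9.41, 11.0, 8.27, 5.74 and 6.08 at 1 μg/ml in wild type cells, where it fell by 0.86 ± 0.25 (adjusted p = 0.0147). In WT + Inh it had 12.9 and then 9.31, 10.9, 13.6, 13.1 and 12.7, and in IKKβSA 7.71 and then 9.13, 11.6, 10.8, 11.4 and 7.75, and neither trend passed the test (adjusted p = 0.291 and 0.515). Its unstimulated level was thus already low in IKKβSA cells. Member 170 was picked for its 60 min column in IKKβSA, which its trend there also holds. Member 172 fell at 1 μg/ml in wild type cells by 0.82 ± 0.10 (adjusted p = 1.71e-07), with 111, 95.7, 74.8, 66.6 and 64.0. Its trends of -0.22 in WT + Inh and -0.18 in IKKβSA did not pass the test (adjusted p = 0.175 and 0.289). From its own 0 min, though, it was called lower in both, by at most 0.59 in WT + Inh (adjusted p = 8.84e-05) and 0.32 in IKKβSA (adjusted p = 0.0209).

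Member 23 had unlike levels in WT + Inh and IKKβSA. In WT + Inh it had 27.0 at 0 min and then 18.0, 21.8, 19.0, 12.1 and 9.94, a fitted change of -1.08 ± 0.28 (adjusted p = 0.00833), and in IKKβSA 33.8 and then 33.1, 28.7, 28.6, 28.6 and 26.0, where its trend of -0.29 did not pass the test (adjusted p = 0.579). The difference of these trends was not among those called. Member 173, with the smallest change in WT + Inh, had 6.49 there at 0 min and then 7.04, 6.89, 7.57, 9.37 and 8.64, a trend of 0.40 that did not pass the test (adjusted p = 0.275). In wild type cells at 10 μg/ml it had 10.3 and then 7.27, 8.09, 5.56, 5.04 and 5.87.

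**Figure D4:**
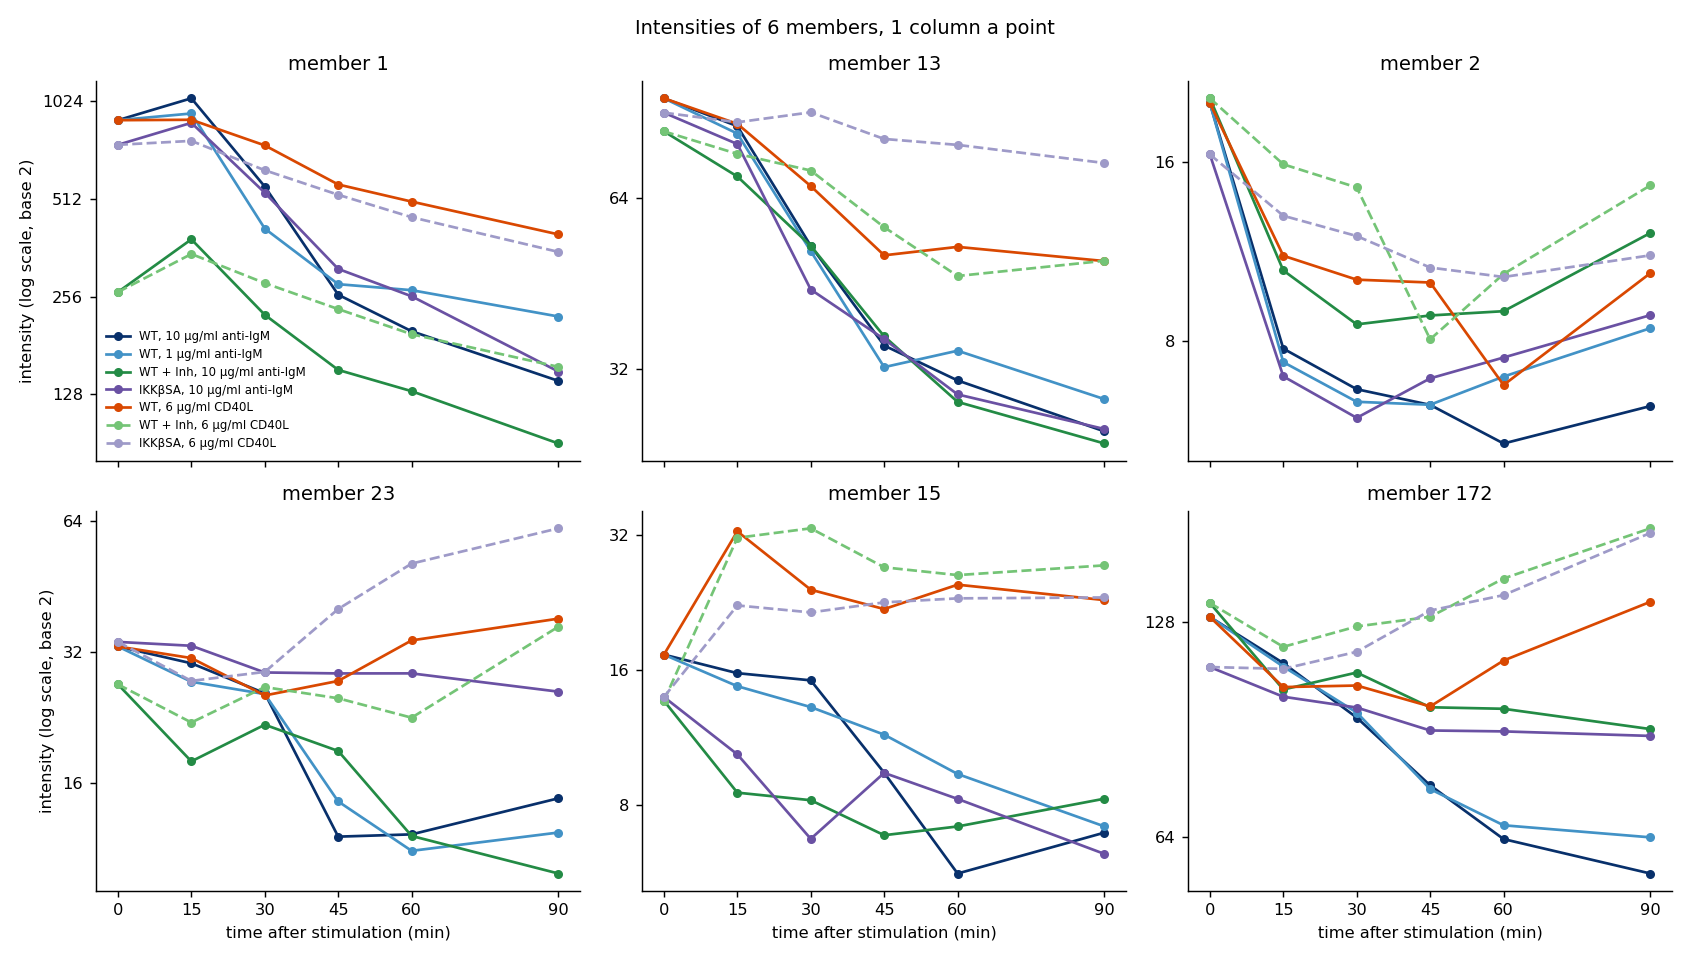
Intensity of 6 members on a logarithmic axis of base 2 (y axis) against time in min (x axis), with 1 point a column and 1 line for each of 7 courses. Member 13 runs nearly alike in the 3 courses at 10 μg/ml anti-IgM, while member 2 is low from 15 min on. At 90 min members 1, 2, 13, 15, 23 and 172 stand higher under CD40L than under anti-IgM in all 3 kinds of cells. The doses compared here are 6 μg/ml CD40L with 10 μg/ml anti-IgM.

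After CD40L the median changes of the members were smaller. In WT the median log2 changes from 0 min at 60 and 90 min were -0.44 and -0.47 at 6 μg/ml, -0.28 and -0.28 at 3 μg/ml and -0.27 and -0.26 at 1 μg/ml, and these again share the column of the choice. Taken from 15 min to 60 min they were -0.25, -0.11 and -0.03. At 60 min 9, 3 and 2 members were 2-fold lower than in the column of the choice at 6, 3 and 1 μg/ml, with 0.0893%, 0.0521% and 0.0484% of all probe sets. At 3 and 1 μg/ml the median was lowest at 30 min and moved little from then on. In WT + Inh and IKKβSA cells, measured from their own 0 min, the medians at 60 min were -0.19 and -0.15, and 2 and 1 members were 2-fold lower (0.0968% and 0.0261% of all probe sets).

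Over 15 to 90 min after 6 μg/ml CD40L 33 members fell and 6 rose in wild type cells, with a median fitted change of -0.25 (limma, 1.19% of all probe sets falling). In WT + Inh 20 fell and 7 rose (1.28% of all falling) and in IKKβSA 13 fell and 8 rose (0.931%), both with a median of -0.12. Of all 26866 probe sets 329 rose in wild type cells, 384 in WT + Inh and 269 in IKKβSA. The counts of falling members moved with single times. The wild type count was 21 without 15 min and 21 without 90 min, the WT + Inh count 8 and 12, and the IKKβSA count 7 and 6. A curve of another shape gave 51, 37 and 20. In 152 of the 194 members none of the 3 CD40L trends fell, and in 7 all did. This overlap too was counted for the members only. Across the members the fitted changes of wild type cells at 6 μg/ml CD40L had a Pearson correlation of 0.41 with those at 1 μg/ml anti-IgM.

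The difference between the 2 stimuli was tested within each kind of cells. In wild type cells 28 members fell more steeply after 1 μg/ml anti-IgM than after 6 μg/ml CD40L, with a median difference of -0.34 (0.718% of all probe sets). In WT + Inh 26 did after 10 μg/ml anti-IgM, with a median difference of -0.23 (0.368%), and in IKKβSA 32 did, with a median of -0.31 (0.767%). No member had the opposite difference in any of the 3 by limma, where 1, 2 and 4 members did at an unadjusted p under 0.05. Of all 26866 probe sets 263, 216 and 598 had the opposite difference by limma. The median standard error of a difference was 0.25. The wild type count was 14 without 15 min, 15 without 30 min and 46 with a curve of another shape. The WT + Inh count was 11 without 15 min, 11 without 30 min, 8 without 90 min and 13 with centred columns, and the IKKβSA count was 15, 21 and 21 without these times.

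Over the 3 CD40L doses in wild type cells 31 members were lower and 8 higher with rising dose at equal times. Of all 26866 probe sets 3.18% were lower and 548 higher. The median slope was -0.04 for each doubling of the dose, with a median standard error of 0.03. Without 15 min 50 members were called lower, without 45 min 9, without 60 min 7 and without 90 min 12. Member 13 had 86.6, 67.3, 50.8, 52.6 and 49.6 at 6 μg/ml and 92.3, 75.6, 76.0, 90.9 and 96.6 at 1 μg/ml, and fell with dose by 0.19 ± 0.04 per doubling (adjusted p = 0.00673). At 90 min it was thus back at its 0 min level of 96.1 with the lowest dose and not with the highest.

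Member 1 fell in all 3 CD40L trends, with fitted changes of -1.18 ± 0.23 for wild type cells (adjusted p = 0.000942), -1.15 ± 0.23 for WT + Inh (adjusted p = 0.00156) and -1.12 ± 0.23 for IKKβSA (adjusted p = 0.00217). Its intensities at 6 μg/ml CD40L in wild type cells were 895, 746, 566, 501 and 397. In IKKβSA cells its fall was steeper after anti-IgM, with a difference of -1.37 ± 0.32 (adjusted p = 0.00944), whereas the differences of -0.67 ± 0.32 for wild type cells and -0.84 ± 0.32 for WT + Inh did not pass the test (adjusted p = 0.395 and 0.258). Member 4 fell after CD40L in wild type cells, with a fitted change of -1.55 ± 0.21 (adjusted p = 5.59e-06), from 13.5 at 15 min through 9.88, 7.53 and 5.15 to 4.81. Its difference from 1 μg/ml anti-IgM, -0.24 ± 0.30, did not pass the test (adjusted p = 0.83).

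A few members went the other way after CD40L. In wild type cells member 172 had 104, 104, 97.6, 113 and 137 at the 5 times. With the inhibitor it had 118, 126, 130, 147 and 173, and in IKKβSA 110, 116, 133, 140 and 171. It rose in all 3, by 0.41 ± 0.10 (adjusted p = 0.0188), 0.56 ± 0.10 (adjusted p = 0.000805) and 0.64 ± 0.10 (adjusted p = 9.91e-05), and in each kind of cells its trend was steeper downward after anti-IgM, with differences of -1.24, -0.78 and -0.82 ± 0.15 (adjusted p = 5.12e-07, 0.00177 and 0.000376).

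Member 23 rose after CD40L in IKKβSA cells by 1.28 ± 0.28 (adjusted p = 0.00649), from 27.5 at 15 min through 28.8, 40.2 and 51.1 to 61.6. Its trends also differed between the stimuli in all 3 kinds of cells (adjusted p = 0.00874 for wild type, 0.0227 for WT + Inh and 0.0192 for IKKβSA). Member 15, with the smallest decline at 60 min of 6 μg/ml CD40L, had 17.3 at 0 min and then 32.6, 24.2, 21.9, 24.8 and 22.9. At 1 μg/ml CD40L it had 11.8, 9.90, 10.4, 13.2 and 24.4, and it rose with CD40L dose by 0.38 ± 0.08 per doubling (adjusted p = 0.00698). Member 15 was therefore higher under CD40L at the higher doses and lower under anti-IgM. It was picked for its 60 min column at 6 μg/ml CD40L, which the dose fit also holds.

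There was little recovery by 90 min after anti-IgM. From 60 to 90 min the median log2 change of the members was -0.05 at 1 μg/ml, with 77 of 194 higher at 90 min, and -0.01 at 0.1 μg/ml, with 93 higher. It was -0.10 in WT + Inh, with 59 higher, and -0.14 in IKKβSA, with 55 higher. Of all probe sets 50.3%, 49.5%, 49.5% and 47% were higher at 90 min in these 4 courses. After 6 μg/ml CD40L the median was -0.03 in wild type cells, with 86 higher, but 0.08 in WT + Inh, with 126 higher, and 0.10 in IKKβSA, with 127 higher, where 52% and 48.5% of all probe sets were higher. Each of these is a difference of 2 columns, with no replicate, and it was not tested.

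The members lowest at 60 min in the course of the choice and those lowest at 90 min were compared in the other courses by counts, with no test. Of the 82 lowest at 60 min, 41 were higher at 90 than at 60 min at 1 μg/ml, 48 at 0.1 μg/ml, 34 in WT + Inh and 33 in IKKβSA. Of the 108 lowest at 90 min, 32, 41, 25 and 19 were. The medians were 0.01 against -0.14 at 1 μg/ml, 0.04 against -0.06 at 0.1 μg/ml, -0.05 against -0.16 in WT + Inh and -0.06 against -0.22 in IKKβSA. The quartile ranges overlapped in all 4. After CD40L the medians had the same order. They were 0.06 against -0.09 at 6 μg/ml, 0.14 against 0.04 in WT + Inh and 0.13 against 0.04 in IKKβSA. In wild type cells they were 0.02 against -0.04 at 1 μg/ml and nearly equal, -0.0091 against -0.0094, at 3 μg/ml. The trends over 15 to 90 min after anti-IgM had the same order too, with 32, 27, 15 and 15 of the 82 called falling and 87, 76, 58 and 61 of the 108. Of all 26866 probe sets 4.5%, 5.26%, 3.22% and 3.03% were called falling in these courses.

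**Figure D5:**
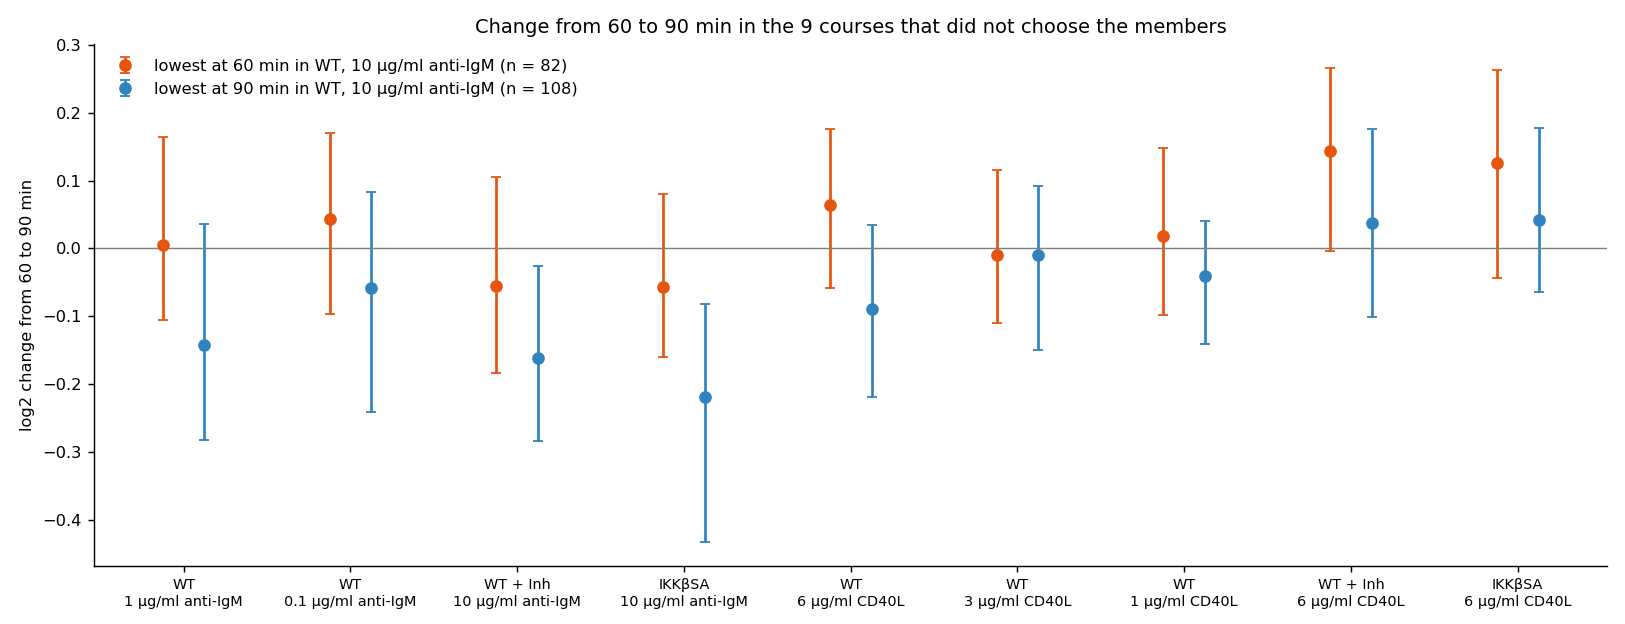
Log2 change from 60 to 90 min (y axis) in the 9 courses that did not choose the members (x axis), as median with the quartiles as bars, for the 82 members lowest at 60 min and the 108 lowest at 90 min in the wild type course at 10 μg/ml. In all 9 courses the median of the 108 lies below that of the 82, at 3 μg/ml CD40L by almost nothing, and the bars overlap.

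Single members differed in recovery. Member 185, of the group lowest by 45 min and with the largest rise from 60 to 90 min at 1 μg/ml, had 18.1 at 0 min and then 14.2, 10.4, 6.74, 7.79 and 12.6 there. At 0.1 μg/ml it had 14.5, 14.1, 9.94, 11.0 and 15.5, and at 10 μg/ml 13.9, 12.4, 7.80, 8.93 and 10.0. In WT + Inh, with 18.1 at 0 min, it had 13.2, 17.4, 7.09, 7.89 and 7.71. In IKKβSA, with 21.1 at 0 min, it had 20.5, 14.8, 8.50, 8.93 and 11.6. All 5 courses were lowest at 45 min and higher at 60 and 90 min, WT + Inh by the least at 90 min, and no test was made of these points. A lowest level by 45 min at 10 μg/ml follows from the group, and the rise after 60 min at 1 μg/ml from the pick.

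Member 2 was back at 8.42 at 90 min of 1 μg/ml from a lowest level of 6.26, and in WT + Inh at 12.2 from 8.54. Member 50, of the group lowest by 45 min, had 28.9 at 0 min and then 19.3, 16.5, 12.1, 12.2 and 12.4 at 10 μg/ml, so that it stayed low. In IKKβSA cells it had 26.3 and then 20.6, 21.6, 20.9, 22.9 and 23.0, a trend of 0.16 that did not pass the test (adjusted p = 0.568). Its limma trends in wild type cells, -0.10 at 1 μg/ml and -0.003 at 0.1 μg/ml, did not pass either (adjusted p = 0.754 and 0.996). Nor did that of -0.25 in WT + Inh after anti-IgM (adjusted p = 0.335). These trends leave out any decline before 15 min. In wild type cells the member was already at 15.9 at 15 min of 1 μg/ml and at 17.2 at 0.1 μg/ml. At 60 min it was at 14.0 and 12.7.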

How the data were processed

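The authors normalized Affymetrix chicken arrays with RMA (named in the submitters' processing notes with no version) and deposited intensity values on a linear scale, 1 column for each of 53 conditions, each combining 2 biological replicates in a way not given in the sources used here. Depth has no meaning for arrays, and the number of columns limits the precision. Intensities went to log2 with no pseudocount. Probe sets with a geometric mean intensity of 2.07 or less were left out.

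Trends over 15 to 90 min, with an intercept for each course, were fitted to 45 columns with limma 3.58.1 (R 4.3.3; moderated tests, error trend over intensity, Benjamini-Hochberg adjustment, threshold 0.05). Curves from 0 min (47 columns) were natural splines with 3 degrees of freedom, their knots lying at 25 and 50 min between 0 and 90 min. The CD40L dose fit took 15 columns with time as a factor. P-values measure only deviations from these curves. On simulated data for the WT + Inh BCR trend over 26866 probe sets, 55.2% of 1.5-fold, 98.5% of 2-fold and 100% of 4-fold changes were recovered, with 8 false calls. The simulated errors were independent and the changes linear over 15 to 90 min. These figures therefore need not hold for early declines or for errors shared within a column.

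The members and their classes were chosen with earlier results of these data known. Named members were those with the 5 largest changes, the 2 brightest of each class by time of lowest level, the extremes at 60 min in WT + Inh, IKKβSA and 6 μg/ml CD40L, the largest rise from 60 to 90 min at 1 μg/ml anti-IgM, and the 3 probe sets nearest the threshold on each side. Members picked as extremes at 60 min were tested in fits that also hold the columns of the pick. Alternatives were other thresholds, filters, a pseudocount, centred columns, another reference, another curve, fits of single comparisons and fits without each time.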

Additional observations from a re-analysis of the deposited data

How the results depend on the processing

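Of 186 values under alternative settings 144 kept their side of the limits (a count within 1.5 times, a median within the error of a difference) and 42 moved. Only the medians at 60 min could reverse, since a count has no sign, and none of them did. The number of members was 485 with a threshold of -0.8, 63 with -1.2, 94 with the mean of the unstimulated columns as reference, 310 with centred columns and 54 with a pseudocount of 4, which also made the median changes at 60 min -0.71 at 1 and -0.66 at 0.1 μg/ml anti-IgM. Without the 15 min columns the counts of members called were 66 for 1 μg/ml anti-IgM, 21, 8 and 7 for CD40L in WT, WT + Inh and IKKβSA, 14, 11 and 15 for anti-IgM against CD40L in the same order, 30 for 1 against 0.1 μg/ml anti-IgM and 50 for CD40L dose. Without 30 min they were 15, 11 and 21 for anti-IgM against CD40L and 7 for 1 against 0.1 μg/ml. Without 45 min they were 9 for 1 against 0.1 μg/ml and 9 for CD40L dose, and without 60 min 7 for CD40L dose. Without 90 min they were 45 for the IKKβSA trend after anti-IgM, 61 for IKKβSA against its own 0 min, 21, 12 and 6 for CD40L in WT, WT + Inh and IKKβSA, 8 and 21 for anti-IgM against CD40L in WT + Inh and IKKβSA, 8 for 1 against 0.1 μg/ml and 12 for CD40L dose. A curve of another shape gave 51, 37 and 20 for CD40L in WT, WT + Inh and IKKβSA, 46 for anti-IgM against CD40L in WT and 4 for WT + Inh against IKKβSA. That last comparison, with 0 members otherwise, had 1 with a mean log2 above 3, 1 with a pseudocount and 1 from a fit of its own courses. Centred columns gave 13 for anti-IgM against CD40L in WT + Inh, and a fit of its own courses gave 4 for 1 against 0.1 μg/ml. Each left-out time also removes residual degrees of freedom, and the cause of a change was not tested otherwise. No paired analysis was possible because each column combines both replicates.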
